A study of Canis lupus familiaris with 21 samples.

Results

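The lymphocyte-rich areas of regressing canine cutaneous histiocytoma (CCH) were compared between tumor stages 3 and 2 in 11 of the 21 samples of the series: 5 samples of stage 3 (group 3) and 6 of stage 2 (group 2b). The samples were taken by their labels, and 11685 of 21399 genes, those with a count of 10 or more in at least 5 of the 11 samples, were tested. CCH is a skin tumor of mostly young dogs that derives from Langerhans cells, the antigen-presenting dendritic cells of the epidermis. It commonly regresses on its own while lymphocytes move in from its base and edges. Lymphocytes grow in number from stage to stage, and the comparison asks how the lymphocyte areas of stage 3 differ from those of the stage before.

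All samples were untreated, formalin-fixed tumors of privately owned dogs, and RNA was read near the 3′ ends of transcripts with QuantSeq 3′ sequencing. Each group 3 sample came from 1 dog, aged 1.5, 9, 2.5, 2 and 7 years for replicates 1 to 5. Replicate 2 came from a female dog and the other 4 from males. In group 2b, areas with a majority of lymphocytes were punched out of the paraffin blocks. Replicates 1 and 2 came from 1 female dog each, aged 0.7 and 6 years, and the other 4 were pools of 3 or 4 dogs of both sexes between 0.3 and 4 years of age by the labels (the lowest age differs in the study's own sample list). Stage, pooling, punching, sex, age and the RNA quality number (on average higher in group 3, with overlap, in the study's sample list) were thus not independent of each other, and their parts in a difference cannot be told apart by design. No transgene or cell line was involved, and a difference in bulk tissue does not tell whether cells of a type were fewer or held less RNA per cell.

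The libraries held 2200252 to 2862520 counted reads, so that 1 read was worth 0.349 to 0.454 CPM, the count per 1e6 counted reads. Levels are given below as CPM scaled with TMM factors. Because a transcript is read once at its 3′ end, no length scaling was used. Mean depth was 2478490 in group 3 (SD 77800, n = 5) and 2507165 in group 2b (SD 225041, n = 6), a difference within the spread (p = 0.794 by an exact permutation test, 0.794 after adjustment over 4 sample measures). The share of RNA fragments above the length limit of the DV200 measure had a mean of 73.2% in group 3 (SD 2.09, n = 5) and of 74.6% in group 2b (SD 1.73, n = 6; p = 0.223 by the same exact test, 0.446 after adjustment). These are the DV200 values of the labels, and that of group 3 replicate 5 differs in the study's sample list, which bears on every fit with DV200 as a covariate. T cell genes, such as those of the T cell receptor complex, were higher in group 2b than in the tumor cell-rich stage 2 samples (group 2a) for 17 of 22 tested members, with a median log2 difference of 2.01, and 12 of 17 B cell genes were higher too, with a median of 1.99 (edgeR, adjusted p of at most 0.05 for each gene counted). CD3E, a chain of the T cell receptor complex, stood at 278 to 422 CPM in group 3 and at 214 to 403 CPM in group 2b. CD4 was listed at no more than 0.836 CPM in any of the 11 samples and CD8A at 1.99 to 12.6 CPM, so helper and killer T cells could not be told apart by these markers. CD1A6, a CD1 gene of the dog, was at 0 to 1.33 CPM, which does not give the level of other CD1A genes.

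Some libraries stood apart before any test was made. Genes of epidermal keratinocytes and their desmosomes added up to 4327 CPM in replicate 2 and 3765 CPM in replicate 5 of group 3, against 215 to 1403 CPM in the other 9 samples. These 2 samples also came from the oldest dogs of known age (9 and 7 years). Keratinocyte level and age thus cannot be told apart where both samples are left out. Replicate 2 of group 3 also had 3843 CPM of neutrophil and eosinophil genes, where the other samples had 228.5 to 740 CPM. Genes of B cells added up to 1769 CPM in replicate 3 of group 3, above all 6 samples of group 2b (1006 to 1698 CPM), whereas the other 4 samples of group 3 had 465 to 718 CPM. Replicate 2 of group 2b held 909 CPM of ACTA1, the actin of skeletal muscle, against at most 85.3 CPM elsewhere. On principal components of the 500 genes with the highest variance, the first component held 38.0% and the second 13.1% of the variance. Of the 25 tested keratinocyte genes, 19 were among these 500. The scores on the first component were 12.02, 33.9, −13.5, 6.18 and 31.7 in replicates 1 to 5 of group 3 and −25.8 to 4.79 in group 2b, a difference of 25.8 units that did not pass adjustment (exact permutation p = 0.0325, adjusted p = 0.130).

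**Figure D1:**
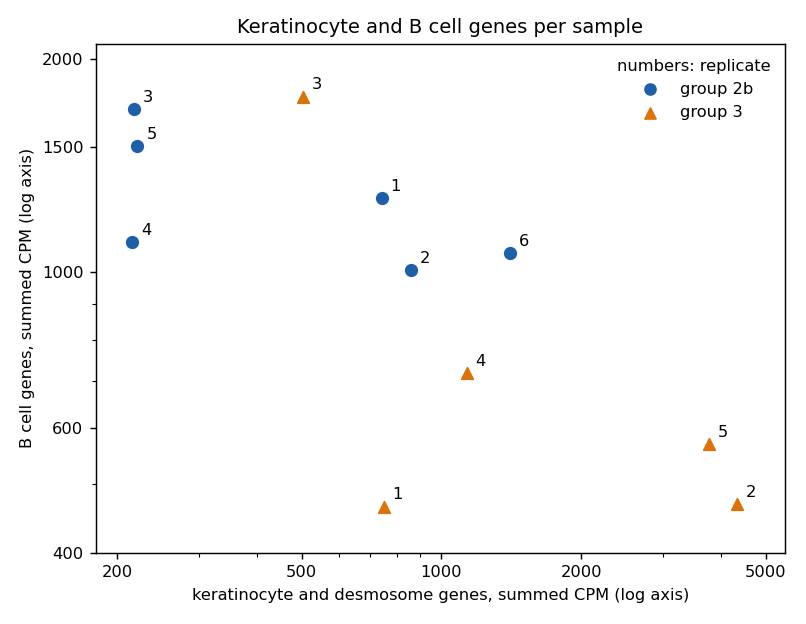
Summed level of keratinocyte and desmosome genes (x axis, CPM, log axis) against that of B cell genes (y axis, CPM, log axis) in each of the 11 samples, with the replicate number beside each point. Group 3 replicates 2 and 5 lie far right at 4327 and 3765 CPM of keratinocyte genes, and group 3 replicate 3 lies at the top with 1769 CPM of B cell genes.

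Few genes separated the stages. In edgeR's quasi-likelihood test, 13 genes passed an adjusted p of 0.05, 9 higher in group 3 (0.077% of the genes tested) and 4 lower (0.0342%). With the added threshold of 1 on the size of the log2 fold change, 1 gene was a differentially expressed gene (DEG) with higher expression (0.00856%) and 4 were DEGs with lower expression (0.0342%). The higher genes included TOX2, SHC1, NDUFAF8, GBGT1, CHCHD2 and LARP1, and the lower genes were LOC102156243, RPL37, ABCA1 and RPIA. Without adjustment, 821 genes (7.03%) were higher and 706 (6.04%) lower at p under 0.05. The samples of the groups did not overlap for 135 genes (1.16%) higher and 111 genes (0.95%) lower in group 3. These shares, 7.03% higher and 6.04% lower, are the background for each count of list members given below at an unadjusted p under 0.05. The median log2 fold change of all genes was 0.0062.

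The calls depended on single libraries and on covariates. The 13 genes were chosen in these same samples and did not overlap between the groups. Kept directions and a small unadjusted p in the refits below were thus largely built in. Without replicate 2, 3, 5 or 6 of group 2b or replicate 1 of group 3, 0 genes passed adjustment, with 1186 to 1400 at an unadjusted p under 0.05. Without replicate 2 of group 3, 2 passed, and without replicate 4 or 5 of that group 6 and 7 passed. Without replicate 3 of group 3, 78 passed (edgeR). DESeq2, the tool of the study, called 185 genes on all 11 samples with the count filter used here, with 19 DEGs higher and 25 lower. The study itself reported fewer DEGs in both directions for these groups at the same thresholds. On an nCounter panel of immuno-oncology genes, run on the same RNA, it found no gene significantly different between these groups. Without replicates 2 and 5 of group 3, the samples with the most keratinocyte RNA, 0 genes passed adjustment (1232 at an unadjusted p under 0.05), and the 13 genes kept their direction with fold changes of 0.793 to 1.07 times those of all 11 samples on the log2 scale (edgeR adjusted p = 0.0699 to 0.186). With the RNA quality number or the share of male dogs as a covariate, 0 genes passed as well (1486 and 1240 at an unadjusted p under 0.05), and the adjusted p of the 13 genes lay between 0.0907 and 0.176 and between 0.0823 and 0.135 (edgeR). Their log2 fold changes were then 0.871 to 1.36 and 0.908 to 1.22 times those without a covariate, and all 13 had an unadjusted p under 0.05.

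**Figure D2:**
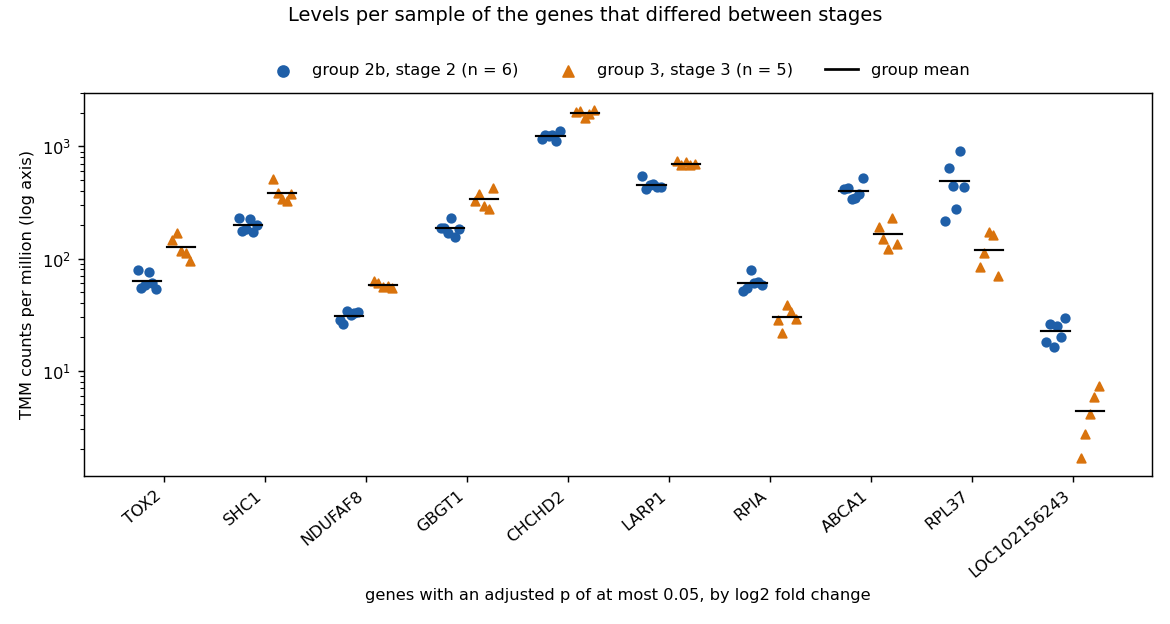
TMM-scaled CPM (y axis, log axis) of 10 of the 13 genes with an adjusted p of at most 0.05 in every sample, group 2b as blue circles (n = 6), group 3 as orange triangles (n = 5) and group means as black bars, ordered by log2 fold change. For each gene the groups do not overlap, from TOX2 (94.7 to 169 against 53.0 to 79.8 CPM) on the left to LOC102156243 (1.66 to 7.38 against 16.4 to 29.3 CPM) on the right.

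Cholesterol is made in the cell from acetyl-CoA through mevalonate and squalene, is taken up through lipoprotein receptors, and leaves the cell through ABC transporters. T cells raise synthesis and lower export when they divide, and macrophages raise export when they load lipid from dead cells. ABCA1, the pump that passes cholesterol and phospholipid from the cell membrane to apolipoprotein A-I, lay on chromosome 11 from 61125735 to 61254053 (UU_Cfam_GSD_1.0). It stood at 191, 148, 121, 229 and 136 CPM in the 5 samples of group 3, and at 339 to 522 CPM (median 395) in group 2b. Every sample of group 3 was below every sample of group 2b. ABCA1 fell by 1.29 on the log2 scale (SE 0.179, edgeR adjusted p = 0.0228), and its log2 fold change was −1.16 without the 2 samples rich in keratinocyte RNA. SCARB1, the receptor for high-density lipoprotein, had 202 ± 26.1 CPM (SD, n = 5) against 128 ± 11.5 CPM (SD, n = 6), with no overlap, and missed the threshold (log2 fold change 0.66, edgeR adjusted p = 0.0587). Over the 23 tested genes of cholesterol efflux, uptake and LXR targets, ABCA1 was the 1 that passed adjustment, and the median log2 fold change was −0.06. 

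The enzymes of cholesterol synthesis lay on the other side. Of 20 tested, 7 were higher and 0 lower at an unadjusted p under 0.05, against 7.03% and 6.04% of all genes, 0 passed adjustment, and the median log2 fold change was 0.39. HSD17B7, a reductase of the late pathway, had 39.1 ± 13.5 CPM (SD, n = 5) against 19.8 ± 2.78 CPM (SD, n = 6). LSS, the cyclase that closes the sterol rings, had 47.8 ± 18.8 against 23.0 ± 8.52 CPM. SQLE, the epoxidase before it, had 32.5 ± 14.5 against 15.0 ± 6.63 CPM. MVK, mevalonate kinase, had 15.0 ± 4.11 against 6.87 ± 2.69 CPM and was the 1 of these 4 whose samples did not overlap. Their log2 fold changes were 0.98, 1.05, 1.11 and 1.12 in that order, with adjusted p-values between 0.128 and 0.217 (edgeR). This group depended on replicates 2 and 5 of group 3, which were rich in keratinocyte RNA and came from the oldest dogs. Without them, the median of the list was 0.04, and 2 members were higher and 1 lower at an unadjusted p under 0.05. LSS was then at a log2 fold change of 0.65 and MVK at 0.90. On all 11 samples, the median was 0.19 with the keratinocyte level and 0.15 with mean age as a covariate. Over the 28 alternatives the median was 0.04 to 0.58. Whether keratinocytes or the age of the dogs carried the higher level was not tested.

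**Figure D3:**
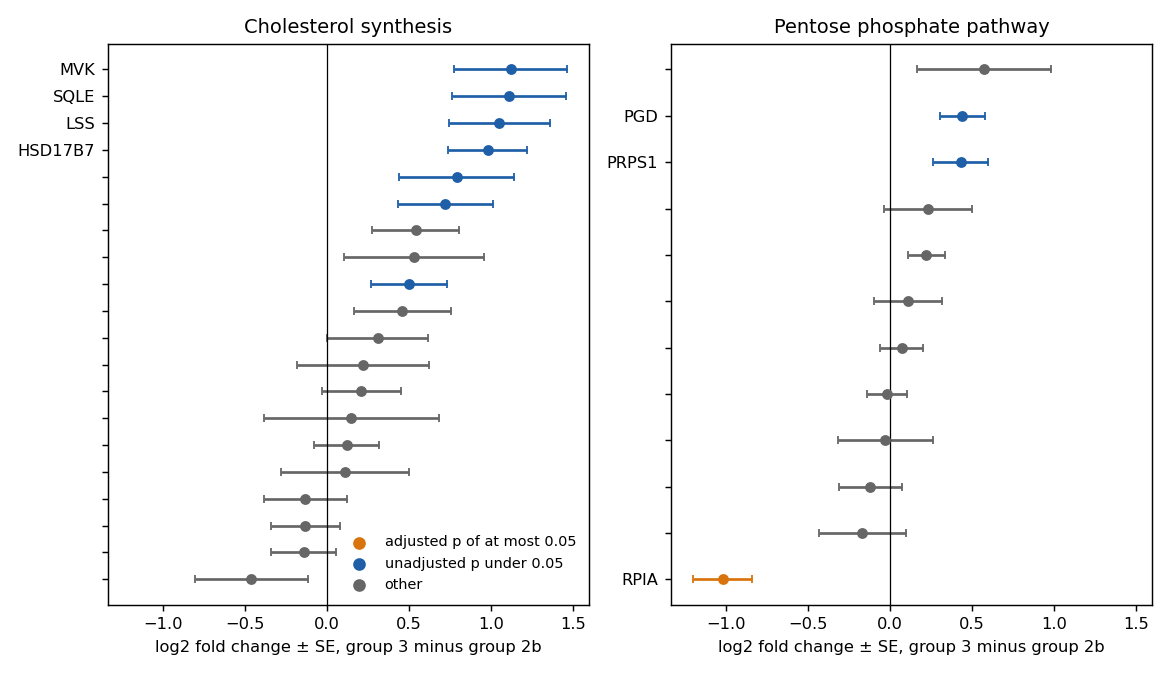
Log2 fold change (x axis, group 3 minus group 2b, bars are the standard error) of each tested enzyme or regulator of cholesterol synthesis (left, 20 genes) and of the pentose phosphate pathway (right, 12 of 13 genes), with the genes described in the text named. Orange marks an adjusted p of at most 0.05 and blue an unadjusted p under 0.05; 7 cholesterol genes are blue with positive values, and RPIA at −1.02 is the orange gene of the pentose phosphate pathway.

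The pentose phosphate pathway branches from glycolysis. Its oxidative arm yields NADPH, which reduces glutathione and feeds lipid synthesis, and its non-oxidative arm interconverts sugars and yields ribose 5-phosphate for nucleotides. RPIA, the isomerase that makes ribose 5-phosphate in the non-oxidative arm (chromosome 17, 38091779 to 38122295), stood at 28.2, 21.6, 38.6, 33.1 and 29.1 CPM against 51.2 to 79.1 CPM (median 59.5). It fell by 1.02 on the log2 scale (SE 0.181, edgeR adjusted p = 0.0424). Every sample of group 3 was below every sample of group 2b. PGD, a dehydrogenase of the oxidative arm, had 588 ± 98.3 (SD, n = 5) against 433 ± 49.5 CPM (SD, n = 6; log2 fold change 0.44, edgeR adjusted p = 0.207). PRPS1, which turns ribose 5-phosphate into the precursor of nucleotides, had 79.5 ± 14.8 against 58.8 ± 9.88 CPM (log2 fold change 0.43, edgeR adjusted p = 0.289). Of the 13 tested members, 3 were higher and 1 lower at an unadjusted p under 0.05, and the median was 0.11, or 0.26 without the 2 samples rich in keratinocyte RNA. Glycolysis and lactate genes had a median of −0.14, with 2 of 23 higher and 1 lower. That count became 0 higher and 7 lower, with a median of −0.53, without the same 2 samples. With the RNA quality number as a covariate the median turned to 0.41, and without 1 sample it was −0.36 to 0.04, so its direction was not settled.

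T cells are switched on through the T cell receptor and CD28, and are restrained by receptors such as CTLA4 and TIGIT and by transcription factors of the TOX and NR4A families that rise with long stimulation. TOX2, a TOX factor found in follicular helper and exhausted T cells (chromosome 24, 32148382 to 32281033), stood at 145, 169, 117, 112 and 94.7 CPM in group 3 and at 53.0 to 79.8 CPM (median 59.5) in group 2b. It rose by 1.00 on the log2 scale (SE 0.171, edgeR adjusted p = 0.0381) and was the DEG with higher expression. Its log2 fold change was 0.97 without the 2 samples rich in keratinocyte RNA. NR4A2 had 56.3 ± 20.5 (SD, n = 5) against 32.1 ± 12.8 CPM (SD, n = 6; log2 fold change 0.81, edgeR adjusted p = 0.284), NR4A1 had 22.7 ± 8.88 against 13.5 ± 4.91 CPM (0.75, edgeR adjusted p = 0.341), and TIGIT 80.7 ± 17.8 against 64.2 ± 11.7 CPM (0.33, edgeR adjusted p = 0.453). CD28, the co-stimulatory receptor, had 5.78 ± 3.25 against 5.70 ± 2.77 CPM, and its sign turned with the setting. CTLA4, its inhibitory counterpart, had 43.4 ± 21.9 against 30.3 ± 12.2 CPM (log2 fold change 0.52, edgeR adjusted p = 0.596). ICOS was at 0 to 5.84 CPM and was not tested. Over the 17 tested genes of the CD28 family, inhibitory receptors and TOX factors, 3 were higher and 0 lower at an unadjusted p under 0.05, and the median was 0.15 (0.41 with the RNA quality number as a covariate). Without the 2 samples rich in keratinocyte RNA, CTLA4 was at a log2 fold change of 0.10 and NR4A1 at 0.33.

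Of 22 tested general T cell genes, 4 were higher and 0 lower at an unadjusted p under 0.05 and the median was 0.15. It was 0.49 with the RNA quality number, 0.34 with the keratinocyte level and 0.00 with the share of males as a covariate. Against the single-dog samples of group 2b it was 0.39, and against the pooled samples 0.07. THEMIS, a signalling protein of T cell development, had 20 ± 1.37 CPM (SD, n = 5) against 10.5 ± 3.32 CPM (SD, n = 6), without overlap. LCK, the kinase that starts T cell receptor signalling, had 224 ± 43.5 against 156 ± 31.9 CPM, CD2 322 ± 73.5 against 239 ± 34.8 CPM, and CD27 99.7 ± 31.0 against 71.2 ± 14.7 CPM. The adjusted p of these 4 genes was 0.168 to 0.342 (edgeR), and the log2 fold change of CD27, 0.49, was 0.29 without replicates 2 and 5 of group 3. Cytotoxic and NK cell genes had a median of 0.35, with 17 of 21 members at a positive value and 2 past an unadjusted p of 0.05. This median was 0.88 with the RNA quality number, 0.14 with DV200 and −0.08 with the B cell level as a covariate, 0.22 without replicates 2 and 5 of group 3, and 0.19 to 0.51 without 1 sample. CCL5, a chemokine of effector T cells, stood at 2323, 1982, 1229, 2324 and 2309 CPM in group 3 and at 591 to 1928 CPM (median 1322) in group 2b, and the low sample of group 3 was replicate 3, the one rich in B cell genes (log2 fold change 0.63, edgeR adjusted p = 0.301). GNLY, a pore-forming granule protein, had 31.4 ± 17.2 against 18.8 ± 6.22 CPM. Of 6 tested genes of regulatory T cells, 0 were past an unadjusted p of 0.05 in either direction.

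The summed level of B cell genes lay lower in 4 of the 5 samples of group 3 than in group 2b. B cells gather around CXCL13, the chemokine that draws cells with the receptor CXCR5 into follicles. All 17 tested B cell genes had negative log2 fold changes with a median of −0.83, 7 were lower at an unadjusted p under 0.05 (6.04% of all genes) and 0 passed adjustment. FCRLA, a relative of the Fc receptors made in B cells, stood at 0, 5.49, 32.0, 5.44 and 0 CPM in group 3 and at 25.0 to 45.2 CPM (median 32.2) in group 2b. Its replicate 3 lay within group 2b and the other 4 samples below it. BLNK, the adaptor that links the B cell receptor to its signalling, had 47.0 ± 23.0 (SD, n = 5) against 83.2 ± 16.1 CPM (SD, n = 6), and CD72 had 15.0 ± 8.72 against 31.9 ± 9.86 CPM. The log2 fold changes of FCRLA, BLNK and CD72 were −1.92, −0.82 and −1.09, with adjusted p-values of 0.289, 0.226 and 0.226 (edgeR). Replicate 3 of group 3 had been singled out by its B cell level, so a larger fall without it was built in. Without that sample the list median was −1.47. Without replicates 2 and 5 it was −0.46, 1 member was lower at an unadjusted p under 0.05, and BLNK was at −0.48. With the RNA quality number as a covariate it was −2.15.

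CXCL13 stood at 8.29, 228, 184, 803 and 76.4 CPM in group 3 and at 238 to 1487 CPM (median 1088) in group 2b. Replicate 4 of group 3 lay within the range of group 2b, and the other 4 samples lay below its lowest sample. CXCR5 was at 12.8, 5.49, 78.0, 20.1 and 2.17 CPM against 33.6 to 96.6 CPM (median 50.2), and POU2AF1, a co-activator needed for germinal centers, at 1.24, 4.31, 14.4, 16.7 and 3.47 CPM against 12.4 to 31.4 CPM (median 23.4). Their log2 fold changes were −2.01, −1.22 and −1.51 (edgeR adjusted p = 0.269, 0.413 and 0.244). Over the 9 tested genes of follicular helper T cells and germinal centers the median was −0.29, with 0 higher and 2 lower at an unadjusted p under 0.05, and it was 0.13 without replicates 2 and 5, and CXCR5 was then at −0.58. Of the 9, 4 had positive values, so the list had no common direction. TOX2 thus lay high in all 5 samples of group 3 while CXCR5, CXCL13 and POU2AF1 overlapped between the groups. JCHAIN, the joining chain of secreted antibody, had 108 ± 75.9 (SD, n = 5) against 268 ± 134 CPM (SD, n = 6), but the 11 tested plasma cell genes had a median of −0.02, and JCHAIN was at a log2 fold change of −1.31, or −0.82 without replicates 2 and 5. Of the 20 tested segments that the annotation classes as variable or constant parts of antigen receptors, a list added after the values were seen, 2 were higher and 5 lower at an unadjusted p under 0.05 and the median was −0.56 (−1.20 with the share of males as a covariate). The annotation used does not say which of them belong to antibodies and which to T cell receptors.

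**Figure D4:**
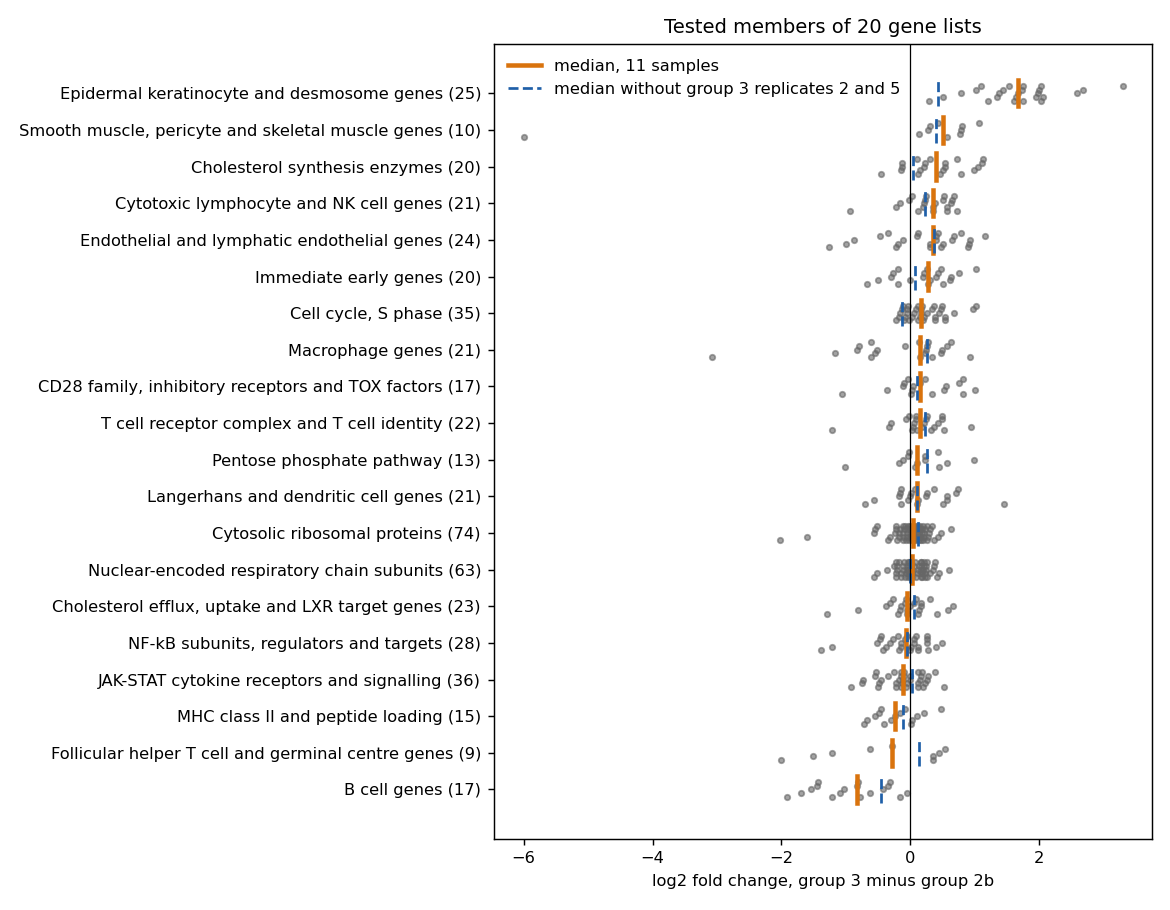
Log2 fold change (x axis, group 3 minus group 2b) of each tested member (grey points) of 20 of the gene lists (number of tested members in parentheses), with the list median over 11 samples in orange and the median without group 3 replicates 2 and 5 as a dashed blue line. The keratinocyte list has the highest median, 1.67, which is 0.43 without the 2 samples, and the B cell list the lowest, −0.83. The 2 samples were picked by their keratinocyte level, so the fall in that list was built in.

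Mitochondrial genes included both a called assembly factor and a called regulator. NDUFAF8, a factor that helps assemble respiratory complex I (chromosome 9, 1688537 to 1690622), stood at 63.4, 61.1, 55.4, 56.9 and 54.7 CPM in group 3 and at 26.2 to 33.9 CPM (median 32.3) in group 2b. It rose by 0.91 on the log2 scale (SE 0.144, edgeR adjusted p = 0.0277). CHCHD2, a protein of the space between the mitochondrial membranes (chromosome 6, 494144 to 498243), stood at 2042, 2056, 1805, 1936 and 2111 CPM against 1129 to 1380 CPM (median 1249). It rose by 0.69 (SE 0.109, edgeR adjusted p = 0.0277). Both had narrow groups with a clear gap. Among 63 tested subunits of the respiratory chain, 9 were higher and 2 lower at an unadjusted p under 0.05, and the median was 0.02. SDHD, a membrane anchor of complex II, had a log2 fold change of −0.52 (edgeR adjusted p = 0.258). The transcripts of the mitochondrial genome were not analysed here.

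The translation machinery held 2 called genes of opposite direction. RPL37, a protein of the large ribosomal subunit (chromosome 4, 69473412 to 69475977), stood at 84.1, 111, 171, 163 and 70.4 CPM in group 3 and at 218 to 916 CPM (median 443) in group 2b. It fell by 2.02 on the log2 scale (SE 0.350, edgeR adjusted p = 0.0381). LARP1, which binds and stabilises the messages of ribosomal proteins (chromosome 4, 55858031 to 55942624), stood at 737, 686, 724, 680 and 694 CPM against 418 to 546 CPM (median 443). It rose by 0.62 (SE 0.109, edgeR adjusted p = 0.0381). The other ribosomal proteins did not follow RPL37: of 74 tested, 3 were higher and 4 lower at an unadjusted p under 0.05, and the median was 0.04. RPL18 had a log2 fold change of 0.43 and RPSA of −0.55 (edgeR adjusted p = 0.226 and 0.267). RPL14 was at −1.61 (edgeR adjusted p = 0.279), with 1 sample of group 2b at 144 CPM and the other 5 at 14.7 to 23.0 CPM. Ribosomal protein genes have many near-identical copies in the genome, and how reads matching several copies were counted is not given in the sources used here, so the level of a single such gene is uncertain. The gene with the largest fall among the 13, LOC102156243 (chromosome 16, 12264883 to 12265363), is a protein-coding model without a name. It stood at 1.66, 2.74, 4.10, 5.86 and 7.38 CPM against 16.4 to 29.3 CPM (median 22.5) and fell by 2.36 on the log2 scale (SE 0.357, edgeR adjusted p = 0.0228).

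The remaining called genes included 2 that act in signalling and glycolipids. SHC1, the adaptor that couples growth factor and antigen receptors to the Ras pathway (chromosome 7, 42488555 to 42496647), stood at 508, 386, 341, 324 and 378 CPM in group 3 and at 174 to 232 CPM (median 192) in group 2b. It rose by 0.96 on the log2 scale (SE 0.141, edgeR adjusted p = 0.0228). GBGT1, which makes the Forssman glycolipid (chromosome 9, 51350890 to 51359991), stood at 328, 373, 294, 277 and 428 CPM against 155 to 232 CPM (median 185). It rose by 0.87 (SE 0.143, edgeR adjusted p = 0.0326). In both genes the lowest sample of group 3 was above the highest of group 2b.

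Lists of chromatin, protein turnover and splicing had medians near that of all genes, and 0 of their members passed adjustment. The members named here were picked for the smallest p in each list. Of 47 tested histone acetyltransferases, deacetylases and their partners, 7 were higher and 4 lower at an unadjusted p under 0.05 and the median was 0.05. KAT8, an acetyltransferase of histone H4, had 117 ± 31.7 CPM (SD, n = 5) against 66.2 ± 17.6 CPM (SD, n = 6), MCRS1 had 151 ± 23.6 against 100 ± 23.4 CPM, and HDAC7, a deacetylase of T cells, 325 ± 25.9 against 242 ± 26.3 CPM (edgeR adjusted p = 0.135, 0.191 and 0.168). Of 43 proteasome genes, 2 were higher and 1 lower with a median of 0.06, and PSMD3, a lid subunit, had 228 ± 44.6 against 152 ± 12.7 CPM without overlap (edgeR adjusted p = 0.109). Splicing factors were split, with 8 of 61 higher, 7 lower and a median of −0.03. SF3B1, which recognises the branch point, had 223 ± 10.9 against 292 ± 31.3 CPM, and U2AF2, which binds the tract next to it, had a log2 fold change of 0.50 (edgeR adjusted p = 0.195 and 0.215). Genes of mTORC1 and autophagy had a median of −0.05, and FLCN, which controls mTORC1 at the lysosome, had 14.2 ± 2.08 against 27.1 ± 6.12 CPM without overlap (edgeR adjusted p = 0.116).

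NF-kB is held in the cytoplasm until TNF family receptors or antigen receptors release it. Of 28 tested genes of this pathway, 1 was higher and 6 lower at an unadjusted p under 0.05 (7.03% and 6.04% of all genes), the median was −0.07, and 0 passed adjustment. NFKB1, the p105 precursor, stood at 49.7, 42.3, 52.9, 55.2 and 61.2 CPM in group 3 and at 68.3 to 73.1 CPM (median 70.1) in group 2b. TRAF3, which restrains the non-canonical arm, stood at 26.1, 34.5, 34.5, 35.6 and 30.4 CPM against 36.2 to 60.6 CPM (median 44.3). Neither gene overlapped between the groups. BIRC3, a target and regulator of the pathway, had 39.7 ± 10.3 (SD, n = 5) against 103 ± 53.5 CPM (SD, n = 6). The log2 fold changes of NFKB1, TRAF3 and BIRC3 were −0.43, −0.52 and −1.38 (edgeR adjusted p = 0.217, 0.237 and 0.103), and −0.42, −0.53 and −1.49 without replicates 2 and 5 of group 3. Cytokine receptors and JAK-STAT genes had 0 of 36 higher and 4 lower with a median of −0.11. Among them were STAT5A (log2 fold change −0.74, edgeR adjusted p = 0.226, or −0.49 without replicates 2 and 5 of group 3), which carries signals of interleukin 2, and IFNGR2 (−0.55, edgeR adjusted p = 0.139), a chain of the receptor for interferon gamma. Interferon-stimulated genes showed no common direction, with 2 of 34 higher, 3 lower and a median of 0.08. ISG15 stood at 51.4, 38.8, 137, 31.4 and 25.6 CPM against 11.7 to 36.4 CPM (log2 fold change 1.53, edgeR adjusted p = 0.168). Of the death receptor and BCL2 genes, 0 of 23 were higher and 2 lower, TNFSF10 (the ligand TRAIL) at −1.10 and CASP10 at −0.41 (edgeR adjusted p = 0.263 and 0.330).

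Lymphocytes move by turning over actin at their front. Of 49 tested genes of actin capping, filaments and migration, 9 were higher and 4 lower at an unadjusted p under 0.05 (7.03% and 6.04% of all genes) and the median was 0.10. FMNL1, a formin of white blood cells, stood at 362, 451, 582, 467 and 435 CPM in group 3 and at 201 to 309 CPM (median 277) in group 2b. CFL1, the cofilin that severs filaments, had 1917 ± 199 CPM (SD, n = 5) against 1243 ± 165 CPM (SD, n = 6), and TMSB10, which binds actin monomers, had a log2 fold change of 0.59. DOCK11, an activator of Cdc42, lay the other way, with 61.0 ± 2.56 against 91.2 ± 13.8 CPM. FMNL1, CFL1 and DOCK11 did not overlap between the groups, and their log2 fold changes were 0.76, 0.63 and −0.58 (edgeR adjusted p = 0.0626, 0.0877 and 0.116). Without replicates 2 and 5 of group 3 they were 0.80, 0.60 and −0.61.

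Genes of cell division depended on the same 2 samples. Of 35 S phase genes, 5 were higher and 0 lower at an unadjusted p under 0.05 with a median of 0.16. Without replicates 2 and 5 of group 3, 2 were higher and the median was −0.13. E2F1, a transcription factor that opens S phase, stood at 43.9, 27.4, 24.2, 17.2 and 56.9 CPM in group 3 and at 10.3 to 21.9 CPM (median 16.5) in group 2b. PCNA, the clamp of DNA polymerase, had 471 ± 123 (SD, n = 5) against 335 ± 31.1 CPM (SD, n = 6), with its highest value in replicate 5. The list of G2 and M phase had a median of −0.01, and −0.30 without the 2 samples. With the RNA quality number as a covariate the medians were 0.68 in S phase and 0.48 in G2 and M phase, so neither direction was settled. The log2 fold change of PCNA was 0.49, and 0.27 without the 2 samples.

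Markers of other cells in the tissue differed too. Keratinocytes fill the epidermis and hair follicles above and beside the tumor. All 25 tested keratinocyte genes had positive log2 fold changes, 15 were higher at an unadjusted p under 0.05, 0 passed adjustment, and the median was 1.67. KRT14, a keratin of the basal layer, stood at 126, 618, 40.2, 131 and 1052 CPM in group 3 and at 4.18 to 185 CPM (median 46.2) in group 2b, and IVL, of the cornified envelope, at 18.6, 159, 6.56, 25.5 and 93.4 CPM against 0 to 15.6 CPM. The groups overlapped in both genes, and replicates 2 and 5 were the highest. These 2 samples had been singled out by their summed level of this list, so a smaller rise without them was built in. Without them, the log2 fold changes of KRT14 and IVL went from 2.58 and 3.29 to 0.59 and 1.47. The list median was then 0.43 and 0 members were past an unadjusted p of 0.05. The neutrophil and eosinophil list had a median of 1.96 over 4 tested genes and of −0.21 without them. S100A8, which neutrophils and stressed keratinocytes both make, was at 57.2, 1427, 11.1, 132 and 229 CPM against 20.7 to 186 CPM (log2 fold change 1.99, edgeR adjusted p = 0.341, and −0.49 without these 2 samples).

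Of 24 endothelial genes, 4 were higher and 3 lower, with a median of 0.35. Without replicates 2 and 5, 2 were higher and 4 lower with a median of 0.36, and with the keratinocyte level as a covariate the median was 0.16. VWF, the clotting protein of blood vessel walls, had 179 ± 42.6 CPM (SD, n = 5) against 95.6 ± 27.6 CPM (SD, n = 6), and EGFL7, an endothelial growth factor, 52.9 ± 9.65 against 28.3 ± 6.49 CPM (edgeR adjusted p = 0.109 and 0.0903). FLT1 and VEGFC, a receptor and a ligand of the vascular growth factors, had log2 fold changes of −1.26 and −0.87 (edgeR adjusted p = 0.226 and 0.206). Macrophage genes were split, with 3 of 21 higher, 3 lower and a median of 0.15. LYZ, the antibacterial lysozyme, stood at 0, 5.88, 11.9, 24.7 and 1.30 CPM in group 3 and at 21.8 to 171 CPM (median 69.0) in group 2b (log2 fold change −3.08, edgeR adjusted p = 0.116), while the scavenger receptor STAB1 was at 0.92 and TYROBP, an adaptor of myeloid receptors, at 0.49 (edgeR adjusted p = 0.193 and 0.237). Langerhans and dendritic cell genes, which also mark the tumor cells, had a median of 0.10. Of 21, 4 were higher, among them FSCN1, an actin bundler of mature dendritic cells (log2 fold change 0.71), and CDH1, E-cadherin, which keratinocytes share (1.45; edgeR adjusted p = 0.196 and 0.168), and CDH1 was at 0.84 without replicates 2 and 5. Class II antigen presentation genes had a median of −0.24 with 1 of 15 higher and 1 lower. Their summed level lay the other way with overlap, at 14045 to 21867 CPM (median 16700) in group 3 and 12043 to 19797 CPM (median 14938) in group 2b. Class I genes had a median of −0.06. DLA88, the main class I heavy chain, was at 8113 to 11842 CPM in group 3 and at 7069 to 9750 CPM in group 2b (log2 fold change 0.31, edgeR adjusted p = 0.381).

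Most of the largest differences without overlap were in genes of low level. Among the 188 genes with an unadjusted p under 0.01 and no overlap between the groups, the 10 with the largest increase were LOC119877199, ANXA8L1, LOC100686622, TNK1, EVPL, NEBL, FST, NUGGC, CGN and ITGA8. ANXA8L1, an annexin, stood at 24.0, 81.5, 14.8, 19.7 and 47.3 CPM in group 3 and at 0.418 to 14.1 CPM (median 5.73) in group 2b. EVPL (envoplakin of the cornified envelope) and CGN (cingulin of tight junctions) are epithelial genes, at 4.60 to 12.9 against 1.25 to 3.58 CPM and at 11.5 to 19.1 against 2.51 to 11.3 CPM. NEBL, an actin-binding protein, was at 14.8 to 20.8 against 1.56 to 8.78 CPM, and FST (follistatin, which binds activin) at 6.22 to 16.5 against 1.17 to 5.66 CPM. NUGGC, a nuclear GTPase of germinal center B cells, was at 13 to 34.9 against 4.37 to 10.6 CPM with its highest value in replicate 3, the sample rich in B cell genes. Their log2 fold changes ran from 1.25 in ITGA8 to 3.23 in LOC119877199, and their adjusted p from 0.0877 in NEBL to 0.191 in CGN (edgeR). Without replicates 2 and 5 of group 3, LOC119877199 was at 1.89, ANXA8L1 at 1.6, FST at 1.15 and NEBL at 1.73, and EVPL no longer passed the count filter. The 10 with the largest decrease included LOC102156243 and RPL37, described above, and CDCA7L, ATXN3, IGF2BP3, PIGW, MYH7B, PDCD7, LOC119870103 and P2RY10. CDCA7L, a target of MYC, stood at 0, 0.784, 3.69, 0 and 0.434 CPM in group 3 and at 6.36 to 16.7 CPM (median 9.84) in group 2b. IGF2BP3, which binds messages of growth genes, stood at 0.829, 3.53, 3.69, 1.67 and 4.78 CPM against 5.56 to 37.2 CPM (median 13.4). P2RY10, a lysophospholipid receptor of lymphocytes, stood at 1.24 to 5.74 against 5.84 to 16.0 CPM. A count of 3 in the shallowest library was worth 1.36 CPM, so several values of these 8 genes in group 3 were at the limit of the depth. The count filter asked for 10 counts in 5 of the 11 samples. A gene near the floor in 1 group, such as CDCA7L or EVPL, thus passed through the group where it was high. The lack of overlap and the size of the fold were partly set by the filter in such genes.

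The stage difference in lymphocyte areas was set against that in tumor cell areas, group 2a (stage 2) minus group 1 (stage 1). The fit held all 21 samples, 10 of them from groups 2a and 1 in equal number. Each of these 10 samples came from 1 dog. Both groups held males and females, and age and sex were not given for 1 dog of group 1. The youngest and the oldest of the dogs of known age in these groups were both in group 1. The areas were compared over different stage steps, so area and step cannot be told apart. The 2 differences differed at an adjusted p of at most 0.05 for 678 genes (5.8% of 11685), 302 with a more positive value in lymphocyte areas and 376 with a more negative one. Of these 678 genes, 675 had stage differences of opposite sign in the 2 kinds of area, and 394 had an unadjusted p under 0.05 in group 3 against group 2b (edgeR). Of the 13 genes, 10 were among the 678. The 13 were chosen by group 3 against group 2b, which is part of this contrast, so a high share was built in. SHC1 rose from stage 2 to stage 3 in lymphocyte areas, and in tumor cell areas it fell by 0.72 on the log2 scale from stage 1 to stage 2 (edgeR adjusted p = 0.0291). The difference between these was 1.69 (edgeR adjusted p = 0.00445). For RPL37 the difference was −2.88, for RPIA −1.14 and for LARP1 0.78 (edgeR adjusted p = 0.0301, 0.0345 and 0.00718). ABCA1, NDUFAF8 and TOX2 missed the threshold (edgeR adjusted p = 0.0748, 0.0578 and 0.0841), so unlike stage differences were not shown for them. With DV200 as a covariate, 60 genes passed, and leaving out 1 of the 11 samples gave 326 to 753.

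**Figure D5:**
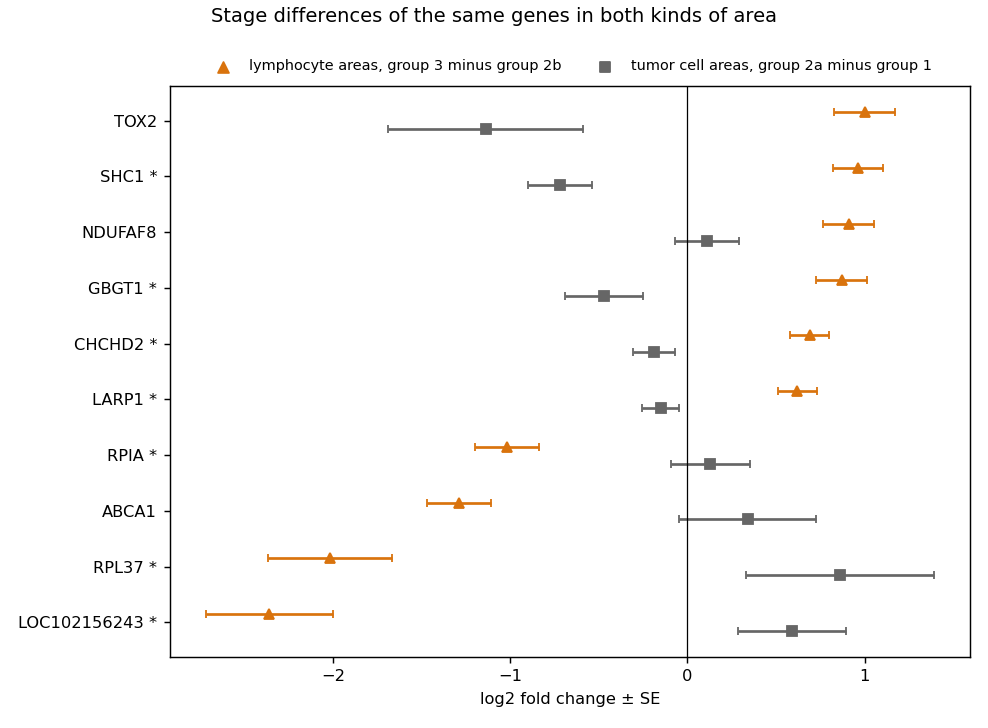
Log2 fold change with its standard error (x axis) of 10 of the 13 genes in lymphocyte areas (orange triangles, group 3 minus group 2b) and in tumor cell areas (grey squares, group 2a minus group 1). An asterisk marks the 7 genes whose 2 stage differences differed at an adjusted p of at most 0.05, such as SHC1 with 0.96 against −0.72.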

How the data were processed

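The authors deposited raw counts, the number of reads per gene and sample. Per the study's methods and processing notes, reads were trimmed with Cutadapt, aligned with STAR to the dog assembly UU_Cfam_GSD_1.0 and counted with featureCounts, and groups were compared with DESeq2. The handling of multi-mapping reads is not given in the sources used here. The same tables hold the authors' normalized counts and their own fold changes and p-values, which were not used. Groups were taken from the sample labels. The count table holds 21399 genes, named and placed by RefSeq for this assembly, and 122 entries of 43 shared symbols kept their entry names. The chi-square per degree of freedom between any 2 libraries was at least 7.85, so none was a duplicate.

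Genes with at least 10 counts in at least 5 of the 11 samples were tested with edgeR 4.0.16 (TMM factors, quasi-likelihood F-test, R 4.3.3), and p-values were adjusted by Benjamini-Hochberg over all 11685 genes. A DEG combined an adjusted p of at most 0.05 with a log2 difference of 1 or more in either direction. Fold changes are group 3 minus group 2b. The labels name separate dogs or pools. Values per gene are TMM-scaled CPM. Principal components used log2(CPM + 1). Sample measures were compared by 2-sided exact permutation tests (smallest possible p 0.00216). The calls of genes were also run on simulated data as a check of the code, and no value given here rests on it. Some of the changed genes were missed there, so a gene without a call is not shown to be unchanged.

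Named genes were those with an adjusted p of at most 0.05, the 10 largest increases and 10 largest decreases among genes with an unadjusted p under 0.01 and no overlap, up to 4 members of each of 47 gene lists with the smallest p, and CD28, CTLA4 and ICOS. Defining markers of cell types were also named. The members and lists were chosen with earlier results of these data known. Lists are described by counts and medians only. Other settings tried were limma 3.58.1 on log2(CPM + 1), DESeq2 1.42.0, other scaling factors, other filters, all 4 groups in 1 fit, covariates, a replicate block, parts of group 2b, a lower fold change threshold and leaving out each sample. Those on keratinocyte and B cell levels and those on the difference between the stage differences were added after the values were seen. Several genes are not reported here.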

Additional observations from a re-analysis of the deposited data

Results flagged for a closer look

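In 296 groups of values, the sample farthest from the others was compared with the spread of its group by Dixon's criterion, which chance meets in about 1 of 20 groups, and 23 samples were set apart. In group 3, replicate 1 was lowest in PIGW (0 CPM), DLA88 (8113 CPM), CTLA4 (8.7 CPM) and the class I presentation list (11408 CPM summed), and highest in CD4 at 0.414 CPM, which is 1 read. Replicate 3 was lowest in CCL5 (1229 CPM) and in the cytotoxic list (3160 CPM summed), and highest in ribosomal proteins (143017 CPM summed). Replicate 4 was highest in the follicular helper list (1307 CPM summed, where CXCL13 was 803 CPM) and in the pentose phosphate list (5245 CPM summed).

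In group 2b, replicate 1 was lowest in HSD17B7 (14.5 CPM), STAT5A (37.2 CPM), the pentose phosphate list (2565 CPM summed) and the second principal component (−14.6), and highest in TMSB10 (4511 CPM). Replicate 2 was lowest in CXCL13 (238 CPM), the follicular helper list (658 CPM summed) and the lymphoid chemokine list (1617 CPM summed), and highest in the unfolded protein response list (5972 CPM summed). Replicate 4 was highest in RPL14 (144 CPM) and CD3E (403 CPM), replicate 5 lowest in FSCN1 (189 CPM) and replicate 6 lowest in PRPS1 (41 CPM).

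For 33 of 95 named genes, the stage difference in lymphocyte areas differed from that in tumor cell areas (edgeR, adjusted p of at most 0.05). Over all genes tested it did for 678 of 11685 (5.8%). The named genes were mostly chosen by group 3 against group 2b. That comparison is part of this contrast, so a higher share among them was built in. Among the genes with an adjusted p of at most 0.05 in lymphocyte areas, the difference on the log2 scale was 1.69 for SHC1, 1.35 for GBGT1, 0.89 for CHCHD2, 0.78 for LARP1, −1.14 for RPIA, −2.88 for RPL37 and −2.95 for LOC102156243. Among genes with large changes at low level it was 5.12 for LOC119877199, 4.67 for ANXA8L1, 3.69 for TNK1, 2.86 for NEBL, −2.89 for PDCD7, −4.28 for ATXN3 and −4.44 for CDCA7L. In metabolism it was 1.39 for HSD17B7, 1.08 for PGD and 0.77 for PRPS1. In chromatin, protein turnover, cell division and actin genes it was 1.05 for KAT8, 1.03 for MCRS1, 0.76 for PSMD3, 1.33 for E2F1, 0.89 for PCNA, 0.93 for CFL1 and −0.86 for DOCK11. In signalling genes it was −2.06 for BIRC3, −1.75 for TRAF3 and −2.85 for TNFSF10. In markers of other cells it was 5.57 for IVL, 2.67 for CDH1, 1.53 for FSCN1, −2.32 for FLT1, −6.14 for LYZ and −7.92 for ACTA1, which was high in 1 sample of group 2b.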

How the results depend on the processing

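The 13 genes kept their direction in all 28 alternatives, which their choice in these same samples largely built in. The numbers of DEGs with higher expression, of DEGs with lower expression and of genes with an adjusted p of at most 0.05 were 1, 4 and 13. They were 19, 25 and 185 with DESeq2, 0, 2 and 2 with DV200 as a covariate, and 0, 1 and 3 with the B cell level. They were 0, 0 and 0 with the RNA quality number, the share of males, the keratinocyte level, group 2b cut to its pools or to its single dogs, and without the 2 samples highest in keratinocyte genes. At an unadjusted p under 0.05 these gave 1486, 1240, 1132, 1285, 485 and 1232 genes, against 1527 in all. Mean age as a covariate gave 3 higher DEGs and 7 adjusted genes, no count filter gave 0 and 8 with 2414 genes at an unadjusted p under 0.05, upper-quartile factors gave 0 higher DEGs, a fold change threshold of 0.5 gave 9, and all 4 groups in 1 fit gave 1 lower DEG. Leaving out 1 sample gave 0 to 10 higher DEGs, 0 to 40 lower DEGs, 0 to 78 adjusted genes and, unadjusted, 1186 to 1782. The replicate block gave 0 lower DEGs and 1 adjusted gene; the numbers name samples only, since same-numbered samples correlated at −0.069 to 0.150. The difference between the stage differences was found for 1031 genes with DESeq2, 60 with DV200, and 326 to 753 without 1 sample. The first principal component held 22.8% over all genes tested and 33.9 to 41.5% without 1 sample. CD28 turned to −0.70 with the B cell level, −0.53 with DV200, −0.36 with the share of males, −0.18 without the 2 samples, −0.12 with the keratinocyte level and with pooled samples, −0.04 with limma, −0.03 with the block and −0.30 to 0.32 without 1 sample. S100A8 turned to −1.56, −1.11, −0.49 and −0.14 with the B cell level, the keratinocyte level, without the 2 samples and with age. CD8A turned to −0.01 with the share of males. The causes were not tested. Depth limited genes near 1.36 CPM, the worth of 3 reads in the shallowest library.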
